A study of Mus musculus with 6 samples.

Results

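This report describes 9 chemokine receptor genes, Ccr2, Cx3cr1, Ccr1, Cxcr4, Ccr7, Xcr1, Ccr9, Cxcr3 and Cxcr6. They were measured in single cells of mouse inguinal lymph nodes, sorted for a CD169-lineage label. The 9 were chosen by name from the 32287 features counted, with earlier results of these data known. All 9 were detected in each of the 4 mice and passed the filter on low counts. Of 15 other chemokine receptor genes listed for comparison, 14 had at least 1 UMI (unique molecular identifier, 1 counted RNA molecule).

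Chemokine receptors are G protein-coupled receptors that steer leukocytes along gradients of chemokines, small secreted proteins made by stromal cells and other leukocytes. Binding activates Gi proteins, which drive actin remodelling and directed movement, until arrestins and RGS proteins end the signal. In a lymph node they govern who enters, where a cell settles and whether it stays. CCR2 brings monocytes out of bone marrow and into inflamed tissue, CX3CR1 favours patrolling and survival of monocytes and macrophages, and CCR7 brings mature dendritic cells and naive lymphocytes to the T cell zone.

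The mice were Cd169Cre/+.Tdtomato fl/fl animals (CD169Tom) on a C57BL/6J background. Cre was driven by Siglec1, the gene of the sialic acid receptor CD169. The tdTomato label therefore records past or present Siglec1 activity and is passed on to daughter cells. The study used this reporter to test whether CD169+ subcapsular sinus macrophages give rise to tingible body macrophages, which clear dying cells in germinal centres. The single-cell experiment held 2 unimmunized mice and 2 mice immunized with hen egg lysozyme, all harvested on day 9. Live tdTomato+ cells sorted by the labels as CD11b hi carried 1 hashtag antibody per mouse and were pooled into 2 captures of 1 droplet experiment. All 4 animals carried the Cre and the reporter, so no animal without the label was compared.

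The hashtags decide to which mouse each receptor count belongs, and their barcodes are therefore shown, with the whole barcode in lower case.
Unimmunized mouse 1: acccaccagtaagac
Unimmunized mouse 2: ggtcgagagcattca
Immunized mouse 1: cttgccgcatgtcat
Immunized mouse 2: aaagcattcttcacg

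Of 18662 cell barcodes, 12139 were given to a mouse, 2828 and 537 from the unimmunized and 4052 and 4722 from the immunized animals. Median depth was 5877, 6280, 9674 and 12727.5 UMIs per cell in that order. The 621 barcode sequences found in both captures (1242 cells) were left out, because the antibody matrices did not say from which capture they came. Immunized mouse 2 stood apart, holding 238 of the 244 inflammatory macrophage-like cells, and changes in which it decides the value are also given without it.

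Cells were placed in gates by marker genes that held none of the 9 receptors. A cell entered the gate whose marker score was highest, if that score was at least 1 SD above the mean of all cells and at least 3 of the markers were detected. This placed 6377 cells (52.5%) in 17 gates, left 5621 cells ungated and set aside 141 with lymphoid and myeloid scores together. In each of the 16 gates tested, at least 3 of its own markers were among its 10 leading genes by fold. Since the same markers placed the cells, this does not test the gates. Some lists overlap, so their gates are not independent cell types. The C1q macrophage and tingible body macrophage lists share C1qa, C1qb, C1qc and Ms4a7. Those of cDC2 and monocyte-derived DC share Cd209a, Clec10a and H2-DMb2. The sorted marker was uneven: Itgam, which encodes CD11b, averaged 181 CPM (UMIs of the gene per 1e+06 UMIs of the gate) in classical monocyte-like and 321 in neutrophil-like cells, but 12.7 in γδ T-like and 16.5 in αβ T-like cells. Siglec1 itself averaged 48.1 CPM in IFN monocyte-like cells, which carry interferon-response genes, and 4.71 CPM in γδ T-like cells. The CD169 antibody ran the other way between these gates. Its log1p count, less the mean over the antibodies of the cell, averaged 1.576, 1.634, 1.155 and 0.9905 in γδ T-like cells. In IFN monocyte-like cells it was 0.174, −0.438, −0.571 and −0.758 (unimmunized mouse 1 and 2, immunized mouse 1 and 2 in both gates). Reporter RNA (Tomato) was sparse, at 6.22 CPM in classical and 8.47 CPM in nonclassical monocyte-like cells. It averaged 0.383 CPM in γδ T-like, 0.305 in NK-like, 0.966 in B-like and 2.73 in αβ T-like cells (4, 1, 2 and 9 UMIs). The paper classed its B and NKT cells as contaminating. Whether the lymphoid gates belong to the lineage was not tested.

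Levels are given as CPM of the summed cells of a gate in a mouse, always in the order unimmunized mouse 1 and 2, immunized mouse 1 and 2, and only where the gate held at least 10 cells. The UMI counts come from transcript ends, so CPM was compared for 1 gene across gates and not between genes. The question of the gate comparison was where each receptor was transcribed. Each gate was set against the mean of the other gates over 56 gate-by-mouse libraries of 16 gates. Of 144 receptor-gate pairs, 35 were higher and 9 lower (edgeR quasi-likelihood test, Benjamini-Hochberg adjusted p at most 0.05), against 14.9% higher and 5.39% lower among all gene-gate pairs. The inflammatory macrophage-like gate had 1 library and the neutrophil-like gate 1 per condition, and their spread was assumed to be that of the other gates. With mouse as a replicate block, which pairs libraries of 1 animal, 39 were higher, the 35 included. Each of the 9 receptors was higher in at least 1 gate, and the median log2 difference over the 144 pairs was −0.16.

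**Figure D1:**
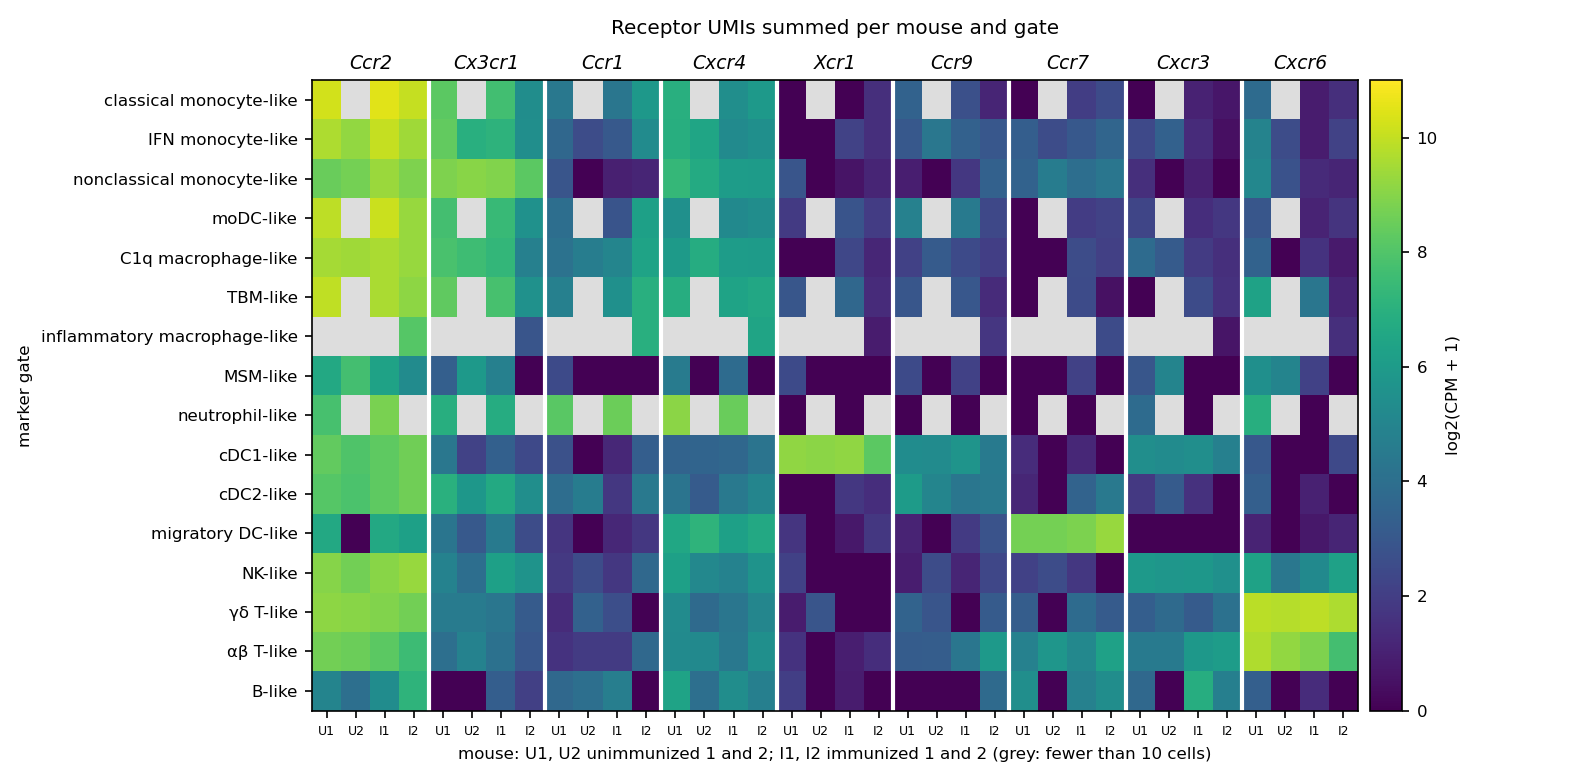
Level of each of the 9 receptors, as log2(CPM + 1), in each gate of each mouse (colour), with gates of fewer than 10 cells in grey. Xcr1 was brightest in cDC1-like, Ccr7 in migratory DC-like and Cxcr6 in γδ T-like and αβ T-like cells, while Ccr2 was spread over most gates.

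Of the 9 genes, 6 lie on mouse chromosome 9 (GRCm38, GENCODE). Cxcr6 lies at chr9:123806475-123811760 on the plus strand, Xcr1 at chr9:123852315-123862029 on the minus strand, Ccr1 at chr9:123962124-123968692 on the minus strand and Ccr2 at chr9:124101950-124113557 on the plus strand. Ccr9 lies at chr9:123678439-123784330 and Cx3cr1, farther off, at chr9:119901616-120069879. Adjacent genes in this cluster had different leading gates: Cxcr6 (γδ T-like) and Xcr1 (cDC1-like) are 40.6 kb apart, and Xcr1 and Ccr1 (neutrophil-like) 100.1 kb. Ccr9, 22.1 kb from Cxcr6 on its other side, was led by cDC1-like cells, the same gate as Xcr1. Cxcr4 lies on chromosome 1, Ccr7 on chromosome 11 and Cxcr3 on chromosome X.

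The 250 bases before the RefSeq start (GRCm38.p6) of 3 of these neighbours and of Cxcr3, the other receptor of T and NK cells, are given 5′ to 3′ on the gene's strand, to set genes that led in different gates side by side. Capitals mark the RUNX letters TGTGGT or the E2A letters CAGGTG on either strand.
Cxcr6, chr9:123806227-123806476 (plus strand): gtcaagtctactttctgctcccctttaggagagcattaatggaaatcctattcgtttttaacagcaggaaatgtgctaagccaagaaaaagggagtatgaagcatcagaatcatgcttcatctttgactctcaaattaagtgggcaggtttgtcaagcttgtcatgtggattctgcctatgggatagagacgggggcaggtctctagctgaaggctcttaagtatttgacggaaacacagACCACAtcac
Cxcr3, chrX:101734148-101734397 (minus strand): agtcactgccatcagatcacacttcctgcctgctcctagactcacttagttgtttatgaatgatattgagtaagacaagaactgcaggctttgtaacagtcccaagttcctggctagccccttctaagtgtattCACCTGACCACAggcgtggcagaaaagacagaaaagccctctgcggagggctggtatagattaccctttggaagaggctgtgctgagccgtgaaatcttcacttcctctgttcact
Xcr1, chr9:123862030-123862279 (minus strand): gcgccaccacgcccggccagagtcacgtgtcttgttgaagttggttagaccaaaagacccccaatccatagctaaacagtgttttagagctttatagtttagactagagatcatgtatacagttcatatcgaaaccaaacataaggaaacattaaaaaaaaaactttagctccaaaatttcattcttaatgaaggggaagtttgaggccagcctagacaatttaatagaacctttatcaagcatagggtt
Ccr1, chr9:123968693-123968942 (minus strand): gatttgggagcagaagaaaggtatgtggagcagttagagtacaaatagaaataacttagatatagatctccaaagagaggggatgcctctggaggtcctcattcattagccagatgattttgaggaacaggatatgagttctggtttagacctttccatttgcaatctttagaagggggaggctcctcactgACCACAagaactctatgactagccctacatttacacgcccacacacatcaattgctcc

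Sequences of 8 of the 9 genes were matched by symbol in the RefSeq promoter table. RUNX letters stood in 4 of the 8, those of Cxcr6 at −10 to −5, Ccr1 at −58 to −53, Cxcr3 at −110 to −105 and Cx3cr1 at −54 to −49, against 14.0% of 32851 promoters of this length. E2A letters stood in Cxcr3, directly before the RUNX letters at −116 to −111, and in Ccr9 at −85 to −80, against 17.2% of promoters. No match was found in the 8 windows for GAAA 2 bases before GAAA (ISRE), GGAA 2 bases before GAAA (EICE), TGANTCA (AP-1) or AGGTGTGA (T-box), which stood in 2.98%, 2.3%, 6.75% and 1.12% of promoters. The genes with RUNX letters were led by γδ T-like (Cxcr6), neutrophil-like (Ccr1), NK-like (Cxcr3) and nonclassical monocyte-like cells (Cx3cr1). Cxcr4, also led by neutrophil-like cells, and Ccr2, led by classical monocyte-like cells, had no such letters.

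Ccr2 encodes the receptor for CCL2 and related monocyte chemoattractants. It was highest in classical monocyte-like cells, at 1226 CPM in unimmunized mouse 1 and 1435 and 1050 CPM in the immunized mice. Monocyte-derived DC-like cells followed with 967, 1123 and 633 CPM in those mice, and IFN monocyte-like cells with 805, 599, 1038 and 692 CPM in all 4. C1q macrophage-like cells, which carry complement C1q genes, held 734, 690.3, 767 and 630.2 CPM, or 705 ± 59.0 (SD, n = 4). Tingible body macrophage-like (TBM-like) cells held 996 CPM in unimmunized mouse 1 (17 cells) and 777 and 566 CPM in the immunized mice. They were named by markers such as Mertk and C1qa, without data on location or uptake of dying cells. The paper calls its own such cluster putative. Classical monocyte-like cells lay above the IFN monocyte-like, C1q macrophage-like and TBM-like gates in every library, while those 3 overlapped one another.

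Against the other gates Ccr2 was higher by 1.97 on the log2 scale in classical monocyte-like cells (edgeR, adjusted p = 9.5e-11), by 1.55 in monocyte-derived DC-like, 1.35 in IFN monocyte-like, 1.16 in TBM-like and 1.08 in C1q macrophage-like cells. The weakest call was in NK-like cells, at 506, 398, 525 and 639 CPM and 0.48 (edgeR, adjusted p = 0.0485), and only 5 of 17 other settings of the analysis made it. Ccr2 was lower in medullary sinus macrophage-like (MSM-like) cells by −2.09, in migratory DC-like cells by −2.04 and in B-like cells by −3.10. MSM-like cells were shallow, with medians of 1731 to 2680 UMIs per cell, and held 75 Ccr2 UMIs over the 4 mice. Lymphoid gates were not empty of it. γδ T-like cells held 564, 525, 485 and 407 CPM and αβ T-like cells 406, 365, 303.1 and 184 CPM, both well above the 30.6, 15.4, 39.96 and 140.4 CPM of B-like cells, with no overlap. In the order of mean levels, the only neighbours with separate ranges were inflammatory macrophage-like and MSM-like cells.

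Cx3cr1 encodes the receptor for fractalkine and is a hallmark of the nonclassical, vessel-patrolling monocyte. Nonclassical monocyte-like cells held 464, 527, 486 and 295 CPM, or 443 ± 102 (SD, n = 4), the highest level of any gate. They exceeded the other gates by 3.55 on the log2 scale with an SE of 0.30 (edgeR, adjusted p = 5.88e-13). In 5 further myeloid gates Cx3cr1 was also higher than elsewhere: by 2.34 in classical monocyte-like, 2.15 in TBM-like, 2.03 in IFN monocyte-like, 1.97 in monocyte-derived DC-like and 1.78 in C1q macrophage-like cells. The TBM-like call was made in 12 of 17 other settings, with differences down to 0.836. Without unimmunized mouse 1, 4 of these 5 did not pass, at 1.71 in TBM-like, 1.69 in IFN monocyte-like, 1.72 in monocyte-derived DC-like and 1.95 in C1q macrophage-like cells. B-like cells lay −5.80 below the other gates.

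The spread of Cx3cr1 between mice was wide in these gates. TBM-like cells held 316, 225 and 45.8 CPM and classical monocyte-like cells 297, 204 and 40.4 CPM in unimmunized mouse 1 and the immunized mice. C1q macrophage-like cells held 226, 193, 154 and 26.6 CPM, and IFN monocyte-like cells 329, 122, 137 and 41.7 CPM. Immunized mouse 2 was the lowest library in each of the 6 gates, the nonclassical one included.

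Ccr1 encodes a receptor for inflammatory chemokines such as CCL3 and CCL5, typical of neutrophils and macrophages. The highest level was in neutrophil-like cells, with 291 CPM in unimmunized mouse 1 (17 cells) and 365 CPM in immunized mouse 1 (24 cells), 5.08 on the log2 scale above the other gates (edgeR, adjusted p = 6.86e-07). Inflammatory macrophage-like cells, marked by Nos2 and Acod1, held 122 CPM in immunized mouse 2, the single library of that gate, with a fitted difference of 3.86 that rests on that library alone. In the same mouse TBM-like cells also held 122 CPM. C1q macrophage-like cells held 16.6, 24.1, 31.4 and 82.1 CPM, TBM-like cells 26.9 and 44.5 CPM in the other 2 mice with at least 10 cells, and IFN monocyte-like cells 11.6, 4.87, 7.46 and 38.2 CPM. Immunized mouse 2 was the highest of the mice in each of these 3 gates. Nonclassical monocyte-like cells averaged only 2.15 CPM.

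**Figure D2:**
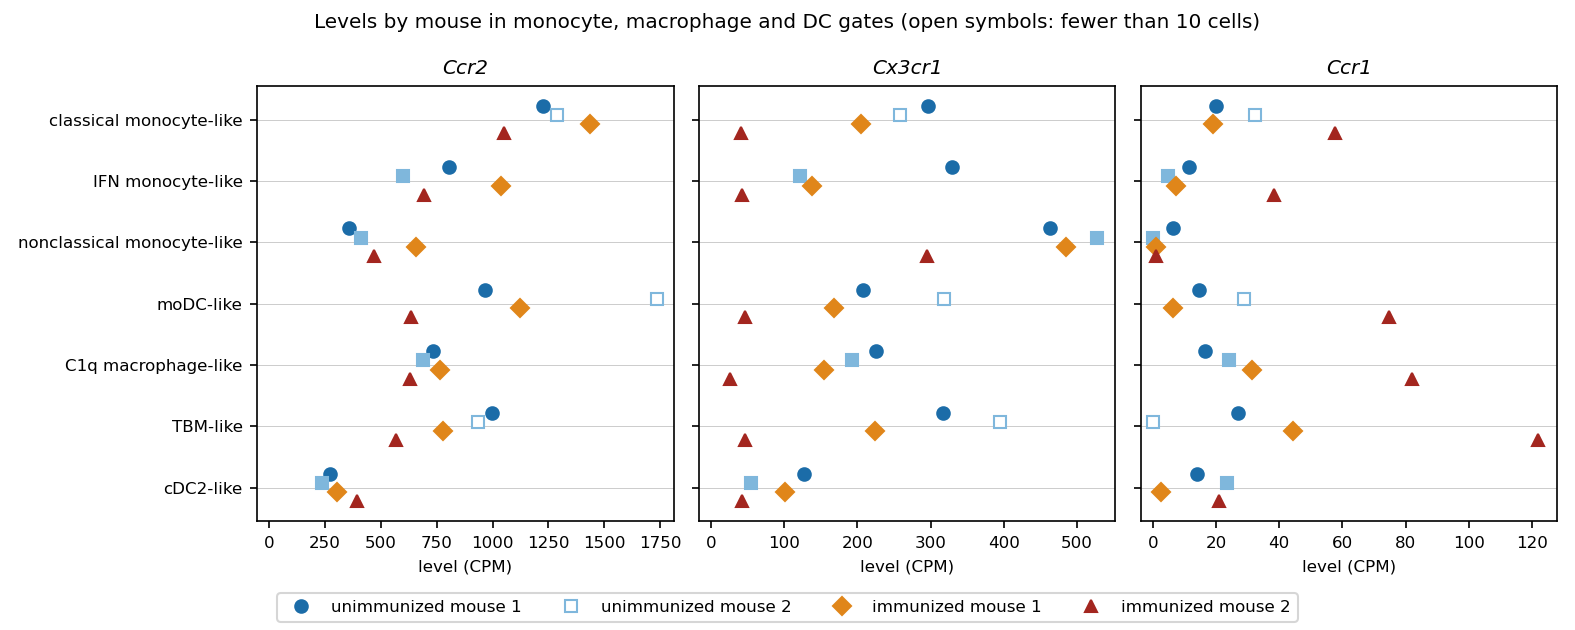
CPM of Ccr2, Cx3cr1 and Ccr1 in 7 monocyte, macrophage and DC gates, 1 point per mouse, with open symbols for fewer than 10 cells. Cx3cr1 peaks in nonclassical monocyte-like cells at 295 to 527 CPM, where Ccr1 averaged 2.15 CPM, and immunized mouse 2 is the lowest point for Cx3cr1 in all 7 gates and the highest for Ccr1 in all but the nonclassical monocyte-like and cDC2-like gates.

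Ccr2 and Cx3cr1 were often found in the same cell. Of nonclassical monocyte-like cells, 52.9%, 55.6%, 74.3% and 67.1% held a UMI of both. Of classical monocyte-like cells, 73.3% in unimmunized mouse 1 and 68.3% in immunized mouse 1 held both, against 23.2% in immunized mouse 2, where 74.6% held Ccr2 alone. In IFN monocyte-like cells the share with Ccr2 alone was 23.3%, 36.8%, 50.0% and 74.2%. Such shares depend on depth. The median in classical monocyte-like cells was 10873.5, 10678 and 11601.5 UMIs in these 3 mice. In IFN monocyte-like cells it was 7973, 9910, 11057 and 12347 UMIs, rising in the same order of mice as the share with Ccr2 alone. The part of depth in these shares was not tested.

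Cxcr4 encodes the receptor for CXCL12, which holds leukocytes in bone marrow and in CXCL12-rich zones. Neutrophil-like cells were highest again, at 542 and 358 CPM in unimmunized and immunized mouse 1, 3.16 on the log2 scale above the other gates (edgeR, adjusted p = 1.63e-12). Migratory DC-like cells held 93.0, 142, 76.3 and 99.6 CPM and were higher by 1.12. Nonclassical monocyte-like cells held 159, 106, 66.8 and 64.4 CPM and were higher by 0.88. The single inflammatory macrophage-like library held 85.8 CPM, 0.93 above the other gates. Cxcr4 was lower in both resident DC gates, by −2.22 in cDC1-like and −1.58 in cDC2-like cells, and also in MSM-like (−1.86), γδ T-like (−1.26) and αβ T-like cells (−0.84). Mean levels ran from 8.98 CPM in MSM-like to 449.9 CPM in neutrophil-like cells, a graded and not a restricted pattern. The MSM-like level rests on 14 Cxcr4 UMIs in shallow cells.

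Ccr7 encodes the receptor for CCL19 and CCL21, the chemokines of the T cell zone. Migratory DC-like cells, marked by Fscn1 and Il4i1, held 413, 419.8, 458 and 626 CPM, or 479 ± 100 (SD, n = 4). They exceeded the other gates by 7.78 on the log2 scale with an SE of 0.19 (edgeR, adjusted p = 3.84e-32). The next gate, αβ T-like cells, held 27.8, 53.4, 34.6 and 78.2 CPM, a mean 9.88 times lower, with no overlap. αβ T-like cells were higher than the other gates by 3.77, B-like cells by 3.50 and nonclassical monocyte-like cells by 2.16. By plain mean CPM, B-like (27.9 against 39.0) and nonclassical monocyte-like cells (16.8 against 39.8) lay below the other gates. B-like cells held 42.9, 0, 27.2 and 41.5 CPM, and without unimmunized mouse 1 their difference was −0.65. cDC1-like cells, the resident counterpart of part of the migratory DC, averaged 0.731 CPM.

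Xcr1 encodes the receptor for XCL1, a chemokine that NK cells and cytotoxic T cells release, and is the standard surface marker of type 1 conventional dendritic cells. It was not among the markers used to gate those cells. cDC1-like cells held 579, 540 and 578 CPM in the first 3 mice and 300.2 CPM in immunized mouse 2, or 499 ± 134 (SD, n = 4). They lay 9.29 above the other gates on the log2 scale with an SE of 0.23 (edgeR, adjusted p = 3.07e-29), the largest of the 144 differences. The next gate by mean, TBM-like cells, averaged 6.67 CPM, 74.9 times less, and the ranges were apart. Of all Xcr1 UMIs, cDC1-like cells held 89.9%, 98.7%, 87.8% and 46.9%, and ungated cells held 25.5% in immunized mouse 2.

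Ccr9 encodes the receptor for CCL25, known for thymus and gut homing. Levels were low throughout. cDC1-like cells held 39.4, 38.6, 50.0 and 22.1 CPM and cDC2-like cells 65.2, 31.4, 18.9 and 21.0 CPM, above the other gates by 3.55 and 3.12 on the log2 scale (edgeR, adjusted p = 4.29e-09 and 1.71e-07). Without unimmunized mouse 1 the calls in cDC2-like, monocyte-derived DC-like and αβ T-like cells were lost, at 3.16, 2.14 and 2.59. Monocyte-derived DC-like cells were higher by 2.29, and αβ T-like cells by 2.09 with 8.17, 8.43, 19.1 and 60.9 CPM. Xcr1 and Ccr9 were detected together in 30.5%, 27.3%, 30.6% and 23.5% of cDC1-like cells. Ccr9 without Xcr1 was seen in 1 cDC1-like cell over the 4 mice.

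Cxcr3 encodes the receptor for the interferon-induced chemokines CXCL9 and CXCL10 and marks type 1 effector lymphocytes. NK-like cells held 58.6, 53.3, 56.2 and 44.5 CPM, or 53.1 ± 6.16 (SD, n = 4), and were higher by 4.39 on the log2 scale (edgeR, adjusted p = 2.13e-15). cDC1-like cells held 42.6, 38.6, 42.1 and 26.5 CPM and were higher by 4.08 (edgeR, adjusted p = 6.4e-13), a level whose range lay above that of γδ T-like cells, at a mean of 11.4 CPM. αβ T-like cells held 21.3, 22.5, 57.3 and 66.1 CPM and were higher by 3.76. B-like cells ranged most, at 12.3, 0, 115 and 25.5 CPM, and were higher by 3.55. Without unimmunized mouse 1 the B-like difference was 0.34 and did not pass, and 2 of 17 other settings lost the call. Migratory DC-like cells had no Cxcr3 UMI in any mouse, which allows at most 1.97 CPM in the deepest of those libraries. The call in γδ T-like cells (1.66, edgeR adjusted p = 0.0239) was made in 7 of 17 other settings and was −3.58 when gates were built from clusters. By plain mean CPM that gate held 11.4, against 13.8 in the other gates.

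Cxcr6 encodes the receptor for CXCL16 and marks tissue-resident and innate-like T cells. γδ T-like cells held 943, 886, 947 and 806 CPM, or 895.5 ± 65.6 (SD, n = 4), and were higher by 6.87 on the log2 scale with an SE of 0.20 (edgeR, adjusted p = 6.39e-30). αβ T-like cells held 815, 593, 463 and 209 CPM and were higher by 6.07 (edgeR, adjusted p = 1.72e-28), with a mean 8.74 times that of the next gate and no overlap. NK-like cells held 79.0, 19.4, 36.6 and 76.8 CPM and were higher by 2.72 on the log scale. Their plain mean of 53.0 CPM lay below the 105 CPM of the other gates. The T cell lists share Cd3d and Cd3e, and the γδ T markers summed to 1383 to 1573 CPM in the αβ T-like gate. There Cd3d and Cd3e averaged 840.5 and 517.8 CPM, and the other γδ T markers 2.28 (Sox13) to 80.8 CPM (Tcrg-C1). In the γδ T-like gate the αβ T markers Trbc2, Trbc1 and Trac averaged 983, 404.5 and 146.5 CPM, against 1458, 677.5 and 580 CPM in αβ T-like cells. Lef1, Cd4 and Cd8b1 averaged 10.1, 4.62 and 1.24 CPM in the γδ T-like gate. The αβ T markers summed to 680.3 to 784 CPM in the NK-like gate. There Trbc1 and Trbc2 averaged 355 and 278 CPM, and the other αβ T markers 2.44 (Cd8b1) to 55.3 CPM (Lef1). The part of this overlap in the receptor levels was not tested.

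In αβ T-like cells Ccr7, the receptor of naive and central memory cells, and Cxcr6 were detected more often apart than together. The share expected from their separate detection was not computed. Cxcr6 without Ccr7 was found in 75.2%, 64.3%, 47.2% and 31.9% of them, and Ccr7 without Cxcr6 in 6.86%, 14.3%, 14.6% and 29.2%. Both together were found in 5.81%, 3.57%, 6.25% and 12.5%. Median depth in this gate was 5420.5 to 6988 UMIs per cell. Detection in other gates varied. Ccr7 was detected in 0.815% of cDC1-like cells, at median depths of 11380 to 17214 UMIs. It reached 4.23% in γδ T-like and 7.83% in nonclassical monocyte-like cells. Cxcr6 was detected in 0.777% of migratory DC-like cells, at 7181 to 11639 UMIs, but in 9.29% of NK-like cells. Of γδ T-like cells, 90.0% to 95.8% held Cxcr6 without Ccr7. The immunized mice had the lower Cxcr6-only shares among αβ T-like cells, with no overlap, in groups of 2.

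Across the 56 libraries, each receptor's level on log2(CPM + 1) was set against that of 6731 other genes, as a description without a test, since libraries of 1 mouse and of 1 gate share cells and depth. Cxcr6 was tracked most closely, by the T lineage factor Bcl11b (r = 0.927), F2r (0.919) and the T cell adaptor Skap1 (0.912). Cxcr4 was tracked by Il4ra (0.841) and by the immediate-early genes Zfp36 (0.834) and Junb (0.819). Ccr2 went with Myo1f (0.84), Gpr65 (0.825) and Vsir (0.814), and Cx3cr1 with the myeloid kinase gene Fgr (0.834), Clec4a1 (0.826) and the scavenger receptor gene Lrp1 (0.812). The other 5 receptors had weaker partners. Xcr1 went with Gm43914 (0.783), Fuca1 (0.751) and Ppt1 (0.728), and Ccr7 with Birc2 (0.751), Tnfrsf4 (0.721) and Pakap (0.666). Cxcr3 went with Rpl13a (0.715) and Sept1 (0.704), Ccr1 with Gpi1 (0.711), Il1r2 (0.69) and Picalm (0.671), and Ccr9 with Ckb (0.666), Mycl (0.637) and H2afy (0.63).

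The effect of immunization was tested within the 11 gates that had at least 10 cells in all 4 mice, as immunized over unimmunized in the same model. None of the 99 receptor-gate pairs passed (edgeR, adjusted p at most 0.05), against 0.0873% of all gene-gate pairs. At an unadjusted p under 0.05 there were 18 such pairs by edgeR, where 6.74% of all gene-gate pairs lay, and DESeq2 also called 0. With 2 mice per condition the estimates were wide, and a change that missed the threshold is not thereby absent. The libraries came from separate mice by their hashtags.

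The closest to the threshold was Cxcr3 in αβ T-like cells. The 21.3 and 22.5 CPM of the unimmunized mice lay below the 57.3 and 66.1 CPM of the immunized mice, a log2 change of 1.63 with an SE of 0.41 (edgeR, adjusted p = 0.060). Over the other settings the gene passed in 6 of 17. Ccr9 in the same gate differed by 2.29 with an SE of 0.66 (edgeR, adjusted p = 0.12) and passed in 3 of 17, while Cxcr6 was −0.94 (edgeR, adjusted p = 0.331). Classical monocyte markers in this gate summed to 394, 804, 1099 and 1471 CPM in the 4 mice, and their part in these differences was not tested. Cxcr3 in B-like cells differed by 3.25 with an SE of 0.67 (edgeR, adjusted p = 0.0734), from 12.3 and 0 CPM to 115 and 25.5 CPM.

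Cxcr6 in the nonclassical and IFN monocyte-like gates was lower in the immunized mice, without passing. Nonclassical monocyte-like cells held 33.0, 5.86, 1.47 and 1.19 CPM and IFN monocyte-like cells 29.0, 4.87, 0.785 and 3.51 CPM, with no overlap in either gate. Counts were few, at 41 and 33 Cxcr6 UMIs in these gates. In unimmunized mouse 2 (27 and 19 cells, 170653 and 205279 UMIs) each level is 1 Cxcr6 UMI, under the floor of 3 counts. The lack of overlap therefore rests on unimmunized mouse 1 and 1 UMI per gate. The log2 change was −4.08 with an SE of 0.89 in nonclassical monocyte-like cells (edgeR, adjusted p = 0.0699) and −3.17 with an SE of 0.81 in IFN monocyte-like cells (edgeR, adjusted p = 0.0952). T cell markers were also highest in unimmunized mouse 1 in both gates. Unimmunized mouse 2 lay above the immunized mice only for the αβ T list in IFN monocyte-like cells. The αβ T list summed to 106, 5.86, 20.1 and 14.3 CPM in the nonclassical and 92.9, 24.4, 13.3 and 17.2 CPM in the IFN monocyte-like gate, and the γδ T list to 46.7, 0, 8.84 and 3.58 CPM and to 30.5, 4.87, 5.10 and 8.42 CPM. Their part in the Cxcr6 difference was not tested. In γδ T-like cells, where the gene was highest, the ranges of the conditions overlapped.

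Cxcr4 was lower in immunized mice in both monocyte gates that were tested. IFN monocyte-like cells held 119 and 87.7 CPM in the unimmunized and 37.3 and 43.8 CPM in the immunized mice, a log2 change of −1.29 with an SE of 0.33 (edgeR, adjusted p = 0.105). In nonclassical monocyte-like cells the change was −0.95 (edgeR, adjusted p = 0.412). The groups did not overlap in either gate. The share of all gene-gate pairs without such overlap was not computed, and the background for passing was the 0.0873% above.

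For Cx3cr1 and Ccr1 the 2 immunized mice differed from each other. In IFN monocyte-like cells the Cx3cr1 change was −1.33 with an SE of 0.63 (edgeR, adjusted p = 0.544) and in C1q macrophage-like cells −1.06 (edgeR, adjusted p = 0.715). Without immunized mouse 1, which leaves immunized mouse 2 alone with the spread of the other libraries assumed for it, these became −2.51 (edgeR, adjusted p = 6.28e-10) and −2.82 (edgeR, adjusted p = 2.95e-11). Without immunized mouse 2 they were −0.75 (edgeR, adjusted p = 0.489) and −0.32 (edgeR, adjusted p = 1.0). Without unimmunized mouse 1 the IFN monocyte-like change was −0.30. Ccr1 in C1q macrophage-like cells, at 1.83 with all mice (edgeR, adjusted p = 0.651), was 2.30 without immunized mouse 1 (edgeR, adjusted p = 0.000734) and 0.88 without immunized mouse 2 (edgeR, adjusted p = 0.972). Without immunized mouse 1, 13 pairs passed, where 1.38% of all gene-gate pairs did, and without immunized mouse 2, 5 passed, where 0.368% did. Ccr7 in migratory DC-like cells differed by 0.48 with an SE of 0.29 (edgeR, adjusted p = 0.806).

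**Figure D3:**
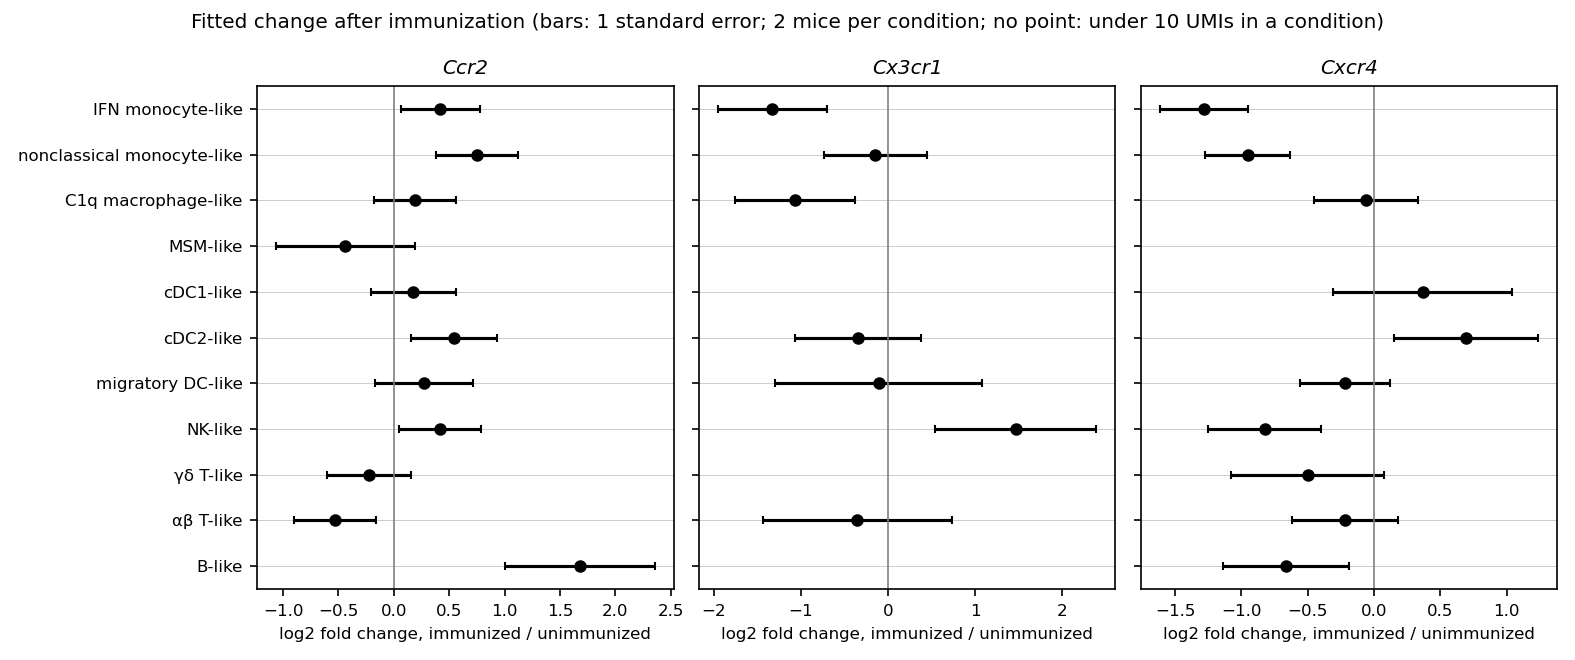
Fitted log2 change, immunized over unimmunized, of Ccr2, Cx3cr1 and Cxcr4 in the 11 tested gates, with bars of 1 SE and no point where a condition had under 10 UMIs. The Cxcr4 change was −1.29 in IFN monocyte-like cells and the Cx3cr1 change −1.33, and no point passed the adjusted threshold.

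Whether a receptor's change differed between a gate and the other gates was tested as an interaction. None of 99 passed (edgeR, adjusted p at most 0.05), against 0.00735% of all pairs. At an unadjusted p under 0.05 there were 7, where 3.74% of all gene-gate pairs lay, and DESeq2 called 0. The smallest adjusted p was that of Cxcr6 in γδ T-like cells, 2.21 on the log2 scale above the change elsewhere (edgeR, adjusted p = 0.793).

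Summed over all kept cells of a mouse, some receptors stood far apart between conditions. In such sums fewer cells of a type and less RNA per cell cannot be told apart. Cxcr6 stood at 307 and 162 CPM in the unimmunized and 30.0 and 5.61 CPM in the immunized mice, Xcr1 at 42.3, 40.9, 12.8 and 2.34 CPM, and Ccr2 at 499.9, 464, 801 and 659.5 CPM. Ccr1 was highest in immunized mouse 2, at 8.66, 7.07, 13.9 and 60.0 CPM, while Cx3cr1 was lowest there, at 109.6, 98.8, 134 and 33.7 CPM. For these receptors other than Cx3cr1 the conditions did not overlap, nor did they for Cxcr3 (15.5, 13.9, 9.64 and 2.16 CPM) and Ccr9 (13.3, 9.69, 8.36 and 6.73 CPM). The share of all genes whose conditions did not overlap was not computed, so this is not read as a result about the receptors.

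None of the 9 passed in the whole-mouse fit (edgeR, adjusted p at most 0.05), and neither did any of the 13596 genes tested, a background of 0%. At an unadjusted p under 0.05 there were 4 receptors, and 28.6% of all genes. The log2 change was −3.49 for Cxcr6 with an SE of 0.85 (edgeR, adjusted p = 0.108), −2.24 for Xcr1, 2.49 for Ccr1 with an SE of 0.77 (edgeR, adjusted p = 0.131) and 0.85 for Ccr2 with an SE of 0.15 (edgeR, adjusted p = 0.107). DESeq2 called these 4 (adjusted p = 0.0135, 0.00811, 0.00115 and 0.000259), with 11.8% of all genes. Without immunized mouse 1, 6 receptors passed in edgeR, with 30.4% of all genes, and without immunized mouse 2, 4 did, with 9.51% of all genes. The Ccr1 change was 3.19 without immunized mouse 1 and 1.02 without immunized mouse 2, that of Xcr1 −3.85 and −1.47, and that of Cxcr6 −5.08 and −2.74.

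**Figure D4:**
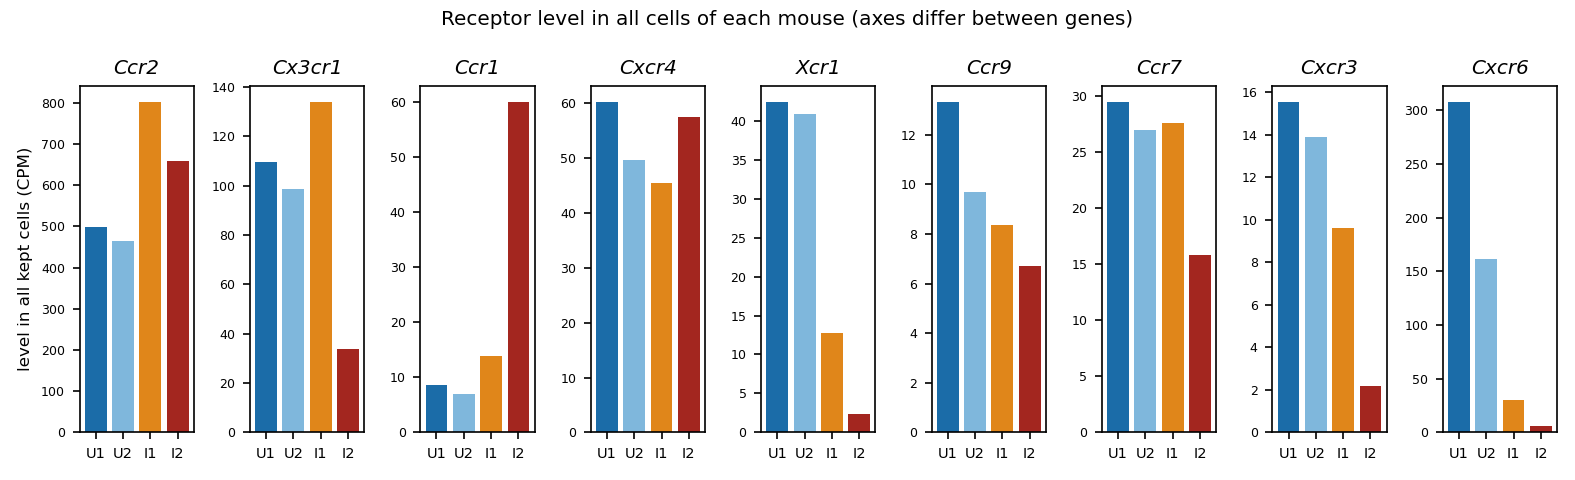
CPM of each receptor in all kept cells of each mouse (bars from 0). Cxcr6 falls from 307 CPM in unimmunized mouse 1 to 5.61 CPM in immunized mouse 2, and Ccr1 reaches 60.0 CPM in immunized mouse 2.

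Some gates with high receptor levels differed in size in the direction of these sums, and others did not. γδ T-like cells were on average 11.5% of the kept cells in unimmunized and 0.797% in immunized mice, αβ T-like cells 11.9% and 2.54%, and cDC1-like cells 3.50% and 0.785%. Classical monocyte-like cells were 0.81% and 5.47%, and C1q macrophage-like cells 2.61% and 9.84%. Neutrophil-like cells, which led Ccr1, were 0.487% and 0.381%, although summed Ccr1 was higher in the immunized mice. cDC2-like cells, next to cDC1-like cells for Ccr9, were 2.34% and 2.47%, although summed Ccr9 was lower there. The part of gate size in the sums was not tested. With 2 mice against 2, no share can pass, since the smallest p of the two-sided exact permutation test is 0.333. The 2 T cell gates held 42.3%, 44.6%, 30.4% and 29.0% (γδ) and 34.3%, 34.2%, 43.5% and 34.5% (αβ) of all Cxcr6 UMIs. Ccr2 UMIs came from γδ T-like cells in 15.5%, 9.20%, 0.582% and 0.125%, and from ungated cells in 29.0%, 44.9%, 48.6% and 63.0%.

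**Figure D5:**
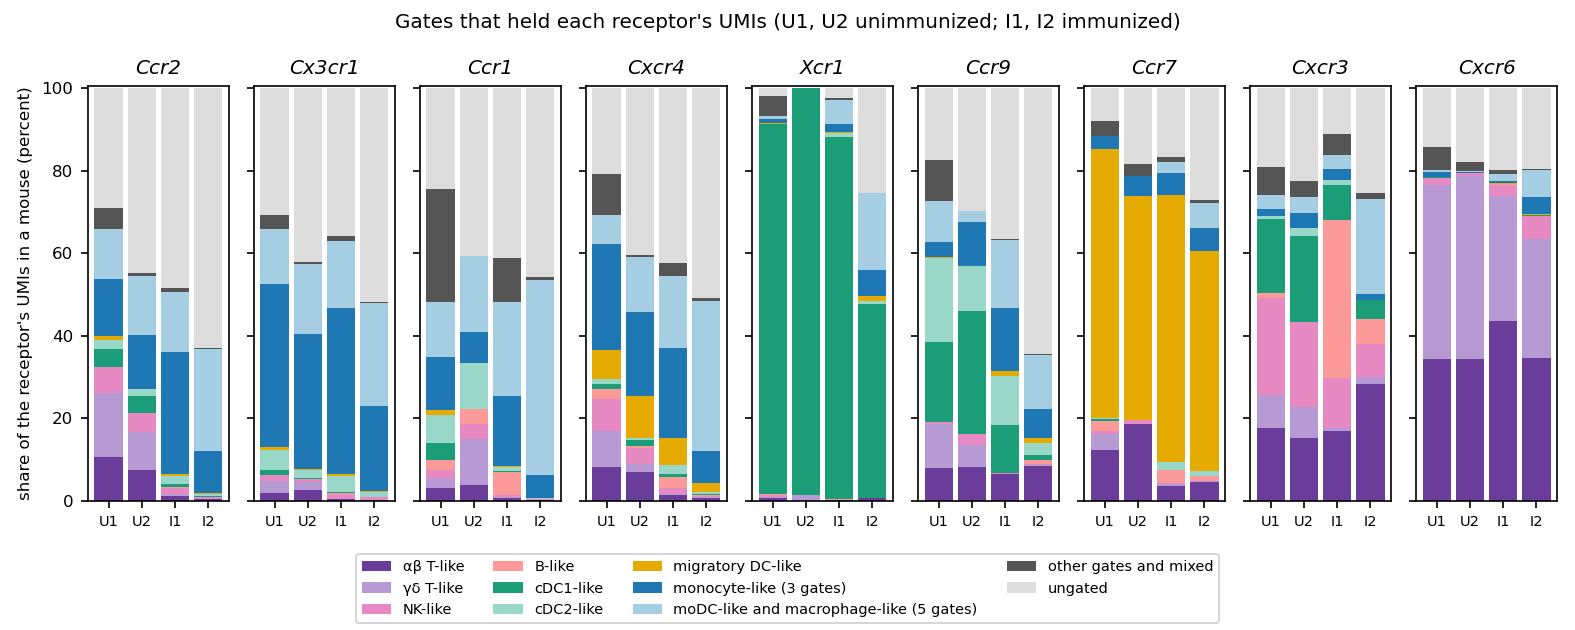
Share of each receptor's UMIs (percent) by group of gates, 1 stacked bar per mouse. Xcr1 comes from cDC1-like cells (46.9% to 98.7%), Ccr7 from migratory DC-like cells (53.2% to 65.4%), and the ungated part of Ccr2 is 29.0% to 63.0%.

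Other genes of the chemokine system, from lists that name no member, gave context. Of the 15 other receptors, 9 could be tested, with 26 of 144 pairs higher and 6 lower between gates and 0 of 99 past the threshold after immunization, against the 14.9%, 5.39% and 0.0873% of all pairs. The largest were Cxcr5, the B cell follicle receptor, in B-like cells (8.13 on the log2 scale, mean 65.7 CPM), the skin-homing receptor gene Ccr10 in γδ T-like cells (7.37, 104 CPM), Cxcr2 in neutrophil-like cells (6.95, 417 CPM) and Ccr4 in αβ T-like cells (6.35). Of 18 ligand genes, 17 were tested, and 62 of 272 pairs were higher and 29 lower, against the same 14.9% and 5.39%.

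Ligands of XCR1, CCR2 and CCR1 were transcribed by cells of the same sort. Xcl1, the ligand of XCR1, was led by NK-like cells at a mean of 544 CPM (9.13 on the log2 scale), and its receptor by cDC1-like cells. Ccl7, a CCR2 ligand, was highest in MSM-like cells (6.95), where Ccr2 was low. Ccl8 was also highest there, at a mean of 6657 CPM (7.68). Ccl3, a CCR1 ligand, was highest in neutrophil-like cells (6.34), the gate with most Ccr1.

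After immunization 2 of 187 ligand pairs passed, 1 in each direction, against 0.0873% of all pairs, and DESeq2 called 2. Cxcl10, a CXCR3 ligand, stood at 13.1, 11.2, 229 and 177 CPM in αβ T-like cells, a log2 change of 4.12 with an SE of 0.93 (edgeR, adjusted p = 0.0274), in the gate where classical monocyte markers also summed higher. It did not pass without unimmunized mouse 1 or 2, at 4.31 and 4.11. Ccl8 stood at 141, 0, 6.67 and 4.56 CPM in IFN monocyte-like cells, a change of −3.88 with an SE of 0.82 (edgeR, adjusted p = 0.0225). That call rests on unimmunized mouse 1, and without it the fitted change was 5.87 and did not pass. Without unimmunized mouse 2 it was −4.54 and missed the threshold. Of 17 signalling genes (G protein, arrestin, kinase and RGS genes), 75 of 272 pairs were higher and 46 lower between gates (14.9% and 5.39% of all pairs), and 0 passed after immunization (0.0873%). The largest were Rgs18, an RGS gene, in γδ T-like cells (−4.43) and cDC2-like cells (3.10), the receptor kinase gene Grk3 in B-like cells (−3.87) and Rgs1 in migratory DC-like cells (3.83).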

How the data were processed

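Per the labels and the study's methods, the authors made raw UMI counts per gene and barcode with Cell Ranger 4.0.0 count and aggr on mm10 with added reporter sequences. The antibody and hashtag counts they deposited came from CITE-seq-Count, of a version not stated there. Whether aggr equalized reads between captures is not stated. Of 6 deposited samples, 2 each are mRNA, antibody and hashtag libraries of the 2 captures, and the mice were told apart by hashtag. The antibody counts were used only to check gates.

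Cells over 25% mitochondrial UMIs were removed. A cell was given to a mouse if 1 hashtag held at least 80% of at least 10 hashtag counts, which also drops doublets of different mice, while doublets within a mouse remain. The groups of 2 mice come from the labelled hashtags. Gates were scored as the mean z value of the depth-scaled, log1p-transformed counts over each marker list. Scores of 0.5, 0.75 and 1 had been seen with the receptor levels before 1 was taken. The members and lists were chosen with earlier results of these data known. Apart from the members, the text names per member the 3 genes with the highest r among those with an average log2 CPM of at least 4, and at most 4 genes per list and comparison, the largest past the threshold, and 1 gene that the rule names is not reported here. Genes outside that rule are gate markers, Itgam, Siglec1 and the reporter Tomato.

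Raw counts were summed per gate and mouse (at least 10 cells, 25697 to 9294108 UMIs, 11136 genes) and fitted with edgeR 4.0.16 quasi-likelihood tests, TMM scaling and filterByExpr, with 1 coefficient per gate and condition and Benjamini-Hochberg adjustment over all genes within each gate. Each SE of an edgeR difference is its absolute log2 value divided by the square root of the test's F value. It restates the test and is not a separate estimate. Libraries of the same animal pair the gates, and the mouse entered as a block in an alternative. Deviations from the gate means of libraries from the same mouse correlated at a median of 0.0523 over 292 pairs (range −0.102 to 0.539, 92 over 0.1). The whole-mouse fit held 4 libraries and 13596 genes. Alternatives were DESeq2 1.42.0, HTODemux in Seurat 5.3.0, Scrublet in scanpy 1.11.5 and Leiden clusters from leidenalg 0.10.2. Further alternatives were other filters, each capture alone and leaving out each mouse. R 4.3.3 and Python 3.11.15 were used, and the fits were tested on simulated data. Limits from a count of 0 rest on 3 counts and cover counting error only. Depth was 3817845 to 61983132 UMIs per mouse.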

Additional observations from a re-analysis of the deposited data

Results flagged for a closer look

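The plasmacytoid DC-like gate held only 19 cells and entered no comparison. Its summed cells held 19 UMIs of Ccr9, or 156.9 CPM, where a count of 0 would allow up to 24.8 CPM, and it was picked out as a signal in cells outside the tested gates. The UMIs came from 3 cells, 18 of them in unimmunized mouse 1, so the level rests on 1 mouse. Ccr2 stood at 272.5 CPM in the same cells, and Ccr7, Ccr1 and Xcr1 had no UMI there.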

How the results depend on the processing

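Between gates, 35 receptor-gate pairs were higher, and the other settings gave 31 to 45, with leaving out 1 mouse at 27 to 43. Of the 35, 22 were called in every other setting, 6 in all but 1, and 7 were lost in 2 or more. The mouse as a replicate block gave 39 and held all 35. With 1 mouse left out Ccr7 in B-like cells ran from −0.65 (without unimmunized mouse 1) to 4.06, and Cxcr3 in γδ T-like cells was −3.58 with Leiden clusters made without the receptors. After immunization within gates, 0 pairs passed in the reported fit, 2 with DESeq2 size factors in edgeR, 3 with HTODemux, 1 with Leiden clusters, 1 with each gate fitted alone, 1 with a gate score of at least 0.5, 2 without the highest Scrublet scores, 2 with mixed cells kept, 11 with no filter on low counts, and 0 to 13 with 1 mouse left out. Over all cells 0 receptors passed, 4 with DESeq2 and 4 with no filter. A fit over all cells with 1 mouse left out has 1 mouse in a condition, so only its size of change is given. For the difference between gates, no filter gave 2, and leaving out 1 mouse gave 0 to 1. Directions turned in changes that had not passed. With 1 mouse left out the change over all cells ran from −1.33 to 0.59 for Cx3cr1, −0.54 to 0.19 for Ccr7 and −0.0568 to 0.35 for Cxcr4, the turned signs coming without immunized mouse 2, and with capture 2 alone 0.0666 for Ccr7 and with capture 1 alone −0.0022 for Cxcr4. With Leiden clusters the change was 0.12 for Cxcr3 in C1q macrophage-like and 2.10 for Cxcr6 in cDC2-like cells, and with 1 mouse left out it ran from −5.87 to 3.07 for the latter and −3.08 to 2.96 for Xcr1 in nonclassical monocyte-like cells, both turned without unimmunized mouse 1. The cause of these shifts was not tested. The gate score of 0.5, and the settings for the difference between gates other than size factors and the block, were chosen after seeing the data. No paired analysis was possible for immunization because each mouse had 1 condition. With 2 mice per condition, 1 library can carry a result.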
